A study of Mus musculus with 15 samples.

Results

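Intestinal cells that the submitters' cell table marks as stem were compared between the colon and the small intestine of the same mice. The mark equalled at least 1 unique molecular identifier (UMI, a tag that counts RNA molecules) of Lgr5 or of eGFP in all 18919 cells of the table, so Lgr5 itself is no finding, and the cells are named stem-called cells below. Of the 18919 cells, 4618 carried the mark, 698 in the colon and 3920 in the small intestine (2036 proximal and 1884 distal). Raw counts were summed over the stem-called cells of each mouse and organ, and the colon was set against the mean of the proximal and distal small intestine within each of 5 mice.

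The 3 mice on a high fat diet (HFD) received 60% of kcal from fat, and the 2 on a purified control diet received 10% of kcal from fat with matching sucrose. All 5 mice were 6 months old and are labelled with the strain Lgr5-eGFP-IRES-CreERT2, an allele in which the Lgr5 gene drives a green fluorescent protein and an inducible Cre recombinase. That allele is known to be active in only part of the crypts, and the labels give no sorting of the cells. Each mouse gave 1 colon, 1 proximal and 1 distal library, made with Seq-Well, which captures single cells in small wells, so that there were 15 libraries and every library was 1 animal's organ.

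Lgr5 is a receptor for R-spondins, secreted proteins that strengthen Wnt signalling, and it marks the dividing stem cells at the base of intestinal crypts. In the small intestine these cells sit between Paneth cells, which secrete antimicrobial peptides, whereas the colon has no Paneth cells and carries other secretory cells at the crypt base. Position along the gut is kept in epithelial cells by transcription factors, among them the posterior Hox genes towards the colon and Gata4 towards the proximal small intestine.

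The colon libraries held few stem-called cells. They numbered 79, 27 and 200 in the colons of HFD mice 1 to 3 and 279 and 113 in the colons of control mice 1 and 2, against 207 to 617 in the 10 small intestine libraries. The summed counts ran from 321496 UMIs in the colon of HFD mouse 2 to 13694552 UMIs in the proximal small intestine of control mouse 2, and 16 of 18898 cell barcodes occurred in more than 1 library. In HFD mouse 2, mitochondrial genes took 20.4% of stem-called counts in the colon and 21.4% in the distal small intestine, against 11.3% to 16.9% in the other 13 libraries.

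Stem-called cells made up a smaller share of the colon than of the small intestine. The share was 14.4% ± 4.26 of colon cells against 26.7% ± 5.18 of small intestine cells (SD, n = 5 mice), lower in the colon in 5 of 5 mice. The mean difference of -12.3 percentage points had an exact two-sided sign-flip permutation p of 0.063, which is the smallest that 5 pairs allow. Among cells with at least 3000 UMIs, each thinned to that number, 7.55% ± 3.81 of colon and 14.3% ± 3.28 of small intestine cells carried the mark (SD, n = 5), again with an exact permutation p of 0.063. This left out 0 to 174 cells of a library, the most in the colon of HFD mouse 2, at 174 of 324. Both shares are of all cell types, lymphoid cells included. Lymphoid cells numbered 422 in the colon, 32 in the proximal and 155 in the distal libraries, and 215 of 549 cells in the colon of HFD mouse 1. Their part in the difference of the shares was not tested. As a check of the mark, 27 measured genes of a stem cell list were compared between marked and unmarked cells of each library: 22 or 23 of the 27 were higher in marked cells in the colon libraries and 27 of 27 in the small intestine libraries. Olfm4 and Gkn3, both on this list, were listed at 0 in marked and in unmarked colon cells, so neither could be higher there.

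In stem-called cells 3279 of 11490 genes tested (28.5%) differed between colon and small intestine at an adjusted p under 0.05 in edgeR's quasi-likelihood test with the mouse as a block, called genes from here on. Of these, 1689 were higher in the colon (14.7% of genes tested) and 1590 lower (13.8%), and 733 (6.38%) and 501 (4.36%) of them differed at least 2-fold. A gene that passes the filter on low counts only through the organ where it is high had to differ, so counts over gene lists below are descriptions. Each such count against the whole small intestine is to be read beside the 14.7% higher and 13.8% lower of all genes tested. Of the called genes, 1026 lay higher in the colon than in both parts of the small intestine in all 5 mice, and 777 lay lower. Without the colon library of HFD mouse 2, which rests on 27 cells, 1674 genes were called higher and 1471 lower. Among the 10222 genes with a count in all 15 sums, a filter used in place of the one on low counts, 1514 were called higher and 1261 lower. Any count above 0 was enough there, so a gene high in 1 organ and near 0 in the other could still enter.

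Set against each end of the small intestine apart, the colon had 1752 genes called higher (15.2%) and 1712 lower (14.9%) than the proximal part, and 1272 higher (11.1%) and 1158 lower (10.1%) than the distal part. It was called higher than both in 1037 genes (9.03%), lower than both in 882 (7.68%), and higher than one but lower than the other in 19 (0.165%). For 533 genes (4.64%) every colon library lay above every small intestine library, and for 354 (3.08%) every colon library lay below. The plot of mean levels shows the spread of both sets of called genes.

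**Figure D1:**
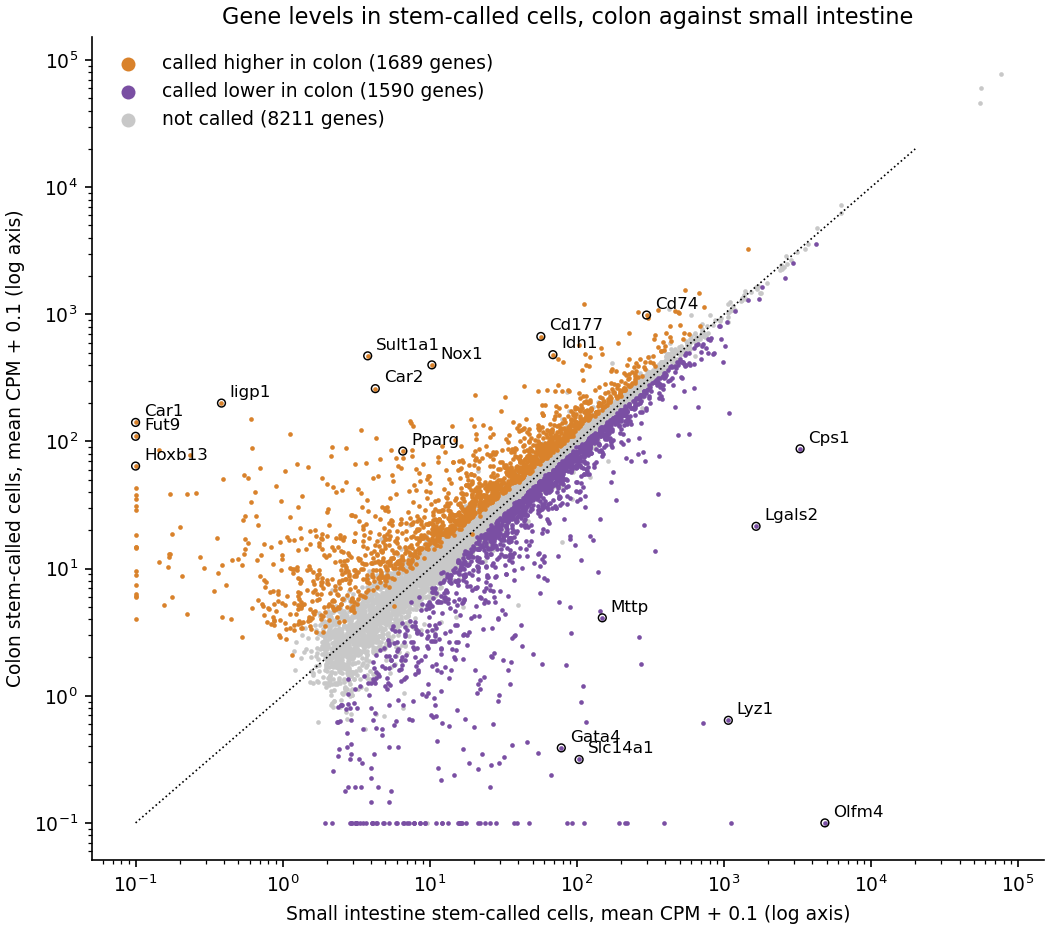
Mean level of each of 11490 genes in stem-called cells of the colon (vertical axis) and of the small intestine (horizontal axis), in CPM (counts per 1000000 UMIs of the sum) plus 0.1 on log axes, over 5 mice. Orange points are the 1689 genes called higher in the colon, purple points the 1590 called lower and grey points the rest; points on the left or lower edge are genes listed at 0 in all libraries of one side.

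Values below are given in the order HFD mouse 1, 2 and 3, then control mouse 1 and 2, in CPM. The 3 genes chosen to mark the organs separated them completely. Hoxb13 encodes the most posterior factor of the Hox b cluster (chromosome 11, 96194316 to 96197447, plus strand of GRCm38), and its levels in the colon were 32.5, 49.8, 63.2, 31.9 and 142 CPM, while it was listed at 0 in all 10 small intestine libraries. Car1, a carbonic anhydrase of the large intestine, was at 14.1, 12.4, 233, 85.7 and 360.1 CPM in the colon and was listed at 0 in all 10 small intestine libraries. The other, unmarked colon cells averaged 1017 CPM of Car1. The 6 markers of mature colonocytes summed to 23.9, 0, 339, 15.4 and 584 CPM in the same 5 colon sums of stem-called cells, and their part in the Car1 values was not tested. Olfm4, a secreted glycoprotein known as a marker of small intestine stem cells, was listed at 0 in all 5 colon libraries and lay at 4154, 5532, 5304, 4749 and 4535 CPM in the proximal and 7182, 4324, 4303, 4611 and 3914 CPM in the distal small intestine. A 0 sets no limit on a level here, because rarely seen genes appear to have been removed library by library before deposit, so no fold change is given for these 3 genes.

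Cell by cell, a Hoxb13 UMI was present in 24.4% of 698 colon stem-called cells (median 11838 UMIs) and in 0.474% of 422 colon lymphoid cells (median 2991 UMIs), which should lack it. Thinned to 2000 UMIs a cell, the shares were 9.05% of 696 stem-called and 0.311% of 322 lymphoid cells, with 2 stem-called and 100 lymphoid cells left out as shallower. For Car1 they were 35.1% and 6.64% in colon stem-called and lymphoid cells, or 11.4% and 2.80% in the same 696 and 322 cells after thinning. An Olfm4 UMI was present in 98.2% of proximal and 94.5% of distal stem-called cells, against 37.5% of 32 proximal and 23.2% of 155 distal lymphoid cells. In cells pooled over mice, each marker was thus more frequent in stem-called than in lymphoid cells of its organ. Lymphoid cells carried part of each marker. The pools drew unequally on the mice. HFD mice 1 and 2 gave 215 and 96 of the 422 colon lymphoid cells, against 79 and 27 of the 698 colon stem-called cells. Shares within each mouse were not compared.

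Among positional factors, the Hox genes were higher in the colon, and Gata4, Gata5 and Onecut2 were lower. Of 33 patterning genes listed, 26 could be tested, with 17 called higher and 6 called lower in the colon. The median log2 fold change was 3.02, against -0.01 over all genes tested, and 0.23 over the members with a count in all 15 sums. The 13 Hox genes tested were all called higher. Those called lower were Gata4, Gata5, Onecut2, Pdx1, Hnf4a and Hnf4g.

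The Hox genes fell into 2 patterns across the small intestine. Hoxa13, Hoxa11 and Hoxb13 were listed at 0 in all small intestine libraries, and Hoxa10 and Hoxa9 averaged 39.1 and 50.3 CPM in the colon, against 0.159 and 0.291 CPM in the small intestine. Hoxb9 instead was graded: 83.4, 46.7, 64.6, 114 and 67.5 CPM in the colon, 0 in all 5 proximal libraries and 12.4, 9.95, 11.6, 55.03 and 24.2 CPM in the distal small intestine. Control mouse 1 had the highest Hoxb9 in both colon and distal small intestine, and its distal level lay above the colon level of HFD mouse 2. The difference between colon and distal small intestine was 1.89 (SE 0.25, adjusted p = 2.05e-04) on the log2 scale. Hoxb8, Hoxb7 and Hoxb6 likewise had mean distal levels between the proximal and the colon levels, as the heat map shows. Hoxa11os, an RNA antisense to Hoxa11, was at 18.5 to 59.1 CPM in the colon and listed at 0 elsewhere, and reads of the 2 genes may not be told apart because the strand setting of the counting is not given.

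**Figure D2:**
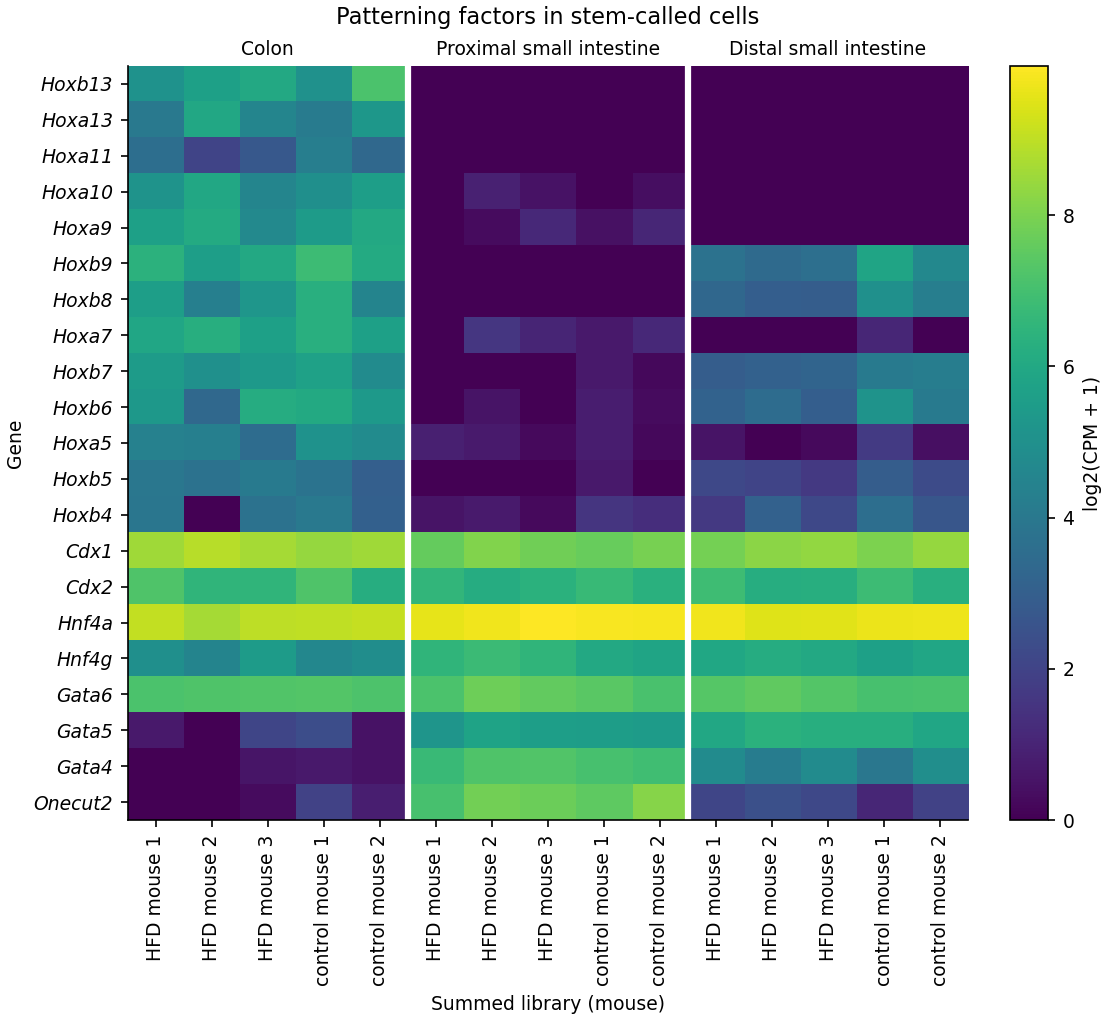
Levels of 21 patterning factors, as log2(CPM + 1) by colour, in the summed stem-called cells of each of 15 libraries, with colon libraries on the left and proximal and distal small intestine to the right. The a-cluster genes from Hoxa13 to Hoxa9 are near 0 throughout the small intestine, Hoxb9 to Hoxb6 are intermediate in the distal part, and Gata4 and Onecut2 are highest in the proximal part.

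Gata4, which maintains proximal small intestine identity, lay at 0 to 0.591 CPM in the colon, 109 to 154 CPM in the proximal and 14.3 to 29.8 CPM in the distal small intestine, without overlap. Onecut2, a homeobox factor, was almost wholly proximal, with 0.794 ± 1.25 CPM in the colon, 209 ± 55.8 CPM in the proximal and 3.03 ± 1.20 CPM in the distal small intestine (SD, n = 5). The nuclear receptor Hnf4a was lower in the colon by much less, at 499.8 ± 58.1 against 852 ± 40.9 CPM (SD, n = 5), a log2 fold change of -0.80 (SE 0.07, adjusted p = 5.73e-07). Cdx1, an intestinal homeobox factor, was higher in the colon, at 0.57, with an adjusted p of 2.69e-05. Cdx2, which specifies intestinal identity, had 110.2 ± 35.9 CPM in the colon and 89.1 ± 16.9 CPM in the small intestine (SD, n = 5) and was not called, at 0.23 (SE 0.09, adjusted p = 0.0745). Without control mouse 2 it was called, at 0.34 (adjusted p = 0.0176).

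The 15 called genes with the highest colon to small intestine ratio were Car1, Fut9, Hoxb13, Nxpe2, Nxpe4, Hoxa11os, Lpo, Hoxa13, Iigp1, Gm4841, Il1r1, Hoxa10, 1600029D21Rik, St6galnac6 and Hoxa9, and in each the small intestine was at or near 0. Fut9, a fucosyltransferase, was at 40.5, 140.0, 115, 56.2 and 197 CPM in the colon and listed at 0 in the small intestine. Lpo, the enzyme lactoperoxidase, was at 55.8, 21.8, 49.3, 44.3 and 18.7 CPM in the colon and listed at 0 in the small intestine. Iigp1, an interferon-inducible GTPase, reached 218, 243, 199.8, 182 and 159.6 CPM in the colon, against 0 to 2.62 CPM in the small intestine. St6galnac6, a sialyltransferase, reached 25.4 to 161 CPM in the colon, against 0 to 0.613 CPM in the small intestine. Il1r1, the receptor of interleukin 1, averaged 38.4 ± 13.7 CPM in the colon and 0.0706 ± 0.119 CPM in the small intestine (SD, n = 5).

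A second ranking, over genes with a count in all 15 sums, was added after values had been seen because ratios to a level of 0 have no size. Its first gene was Sult1a1, a sulfotransferase of phenols, with 515, 295, 261, 903 and 382 CPM in the colon, 0.859, 1.77, 1.44, 4.25 and 1.02 CPM in the proximal and 3.05, 5.60, 1.43, 15.4 and 2.02 CPM in the distal small intestine. Every colon library stood above every small intestine library, and the log2 fold change was 7.44 (SE 0.19, adjusted p = 1.15e-12). Car2, a carbonic anhydrase, followed with 231, 271, 212, 300.4 and 287 CPM in the colon, 7.30, 7.31, 8.23, 4.85 and 4.31 CPM in the proximal and 1.31, 2.49, 1.94, 2.75 and 1.17 CPM in the distal small intestine. Its log2 fold change was 6.34 (SE 0.16, adjusted p = 1.15e-12), and the distal levels lay below the proximal ones in 5 of 5 mice.

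Nox1, the catalytic subunit of an NADPH oxidase that makes superoxide, came next. It measured 449, 448, 403, 319.9 and 381 CPM in the colon, 0.429, 2.44, 1.44, 2.43 and 1.31 CPM in the proximal and 33.4, 13.1, 27.7, 15.4 and 4.82 CPM in the distal small intestine. The distal level stood above the proximal one in 5 of 5 mice, and the colon level above both, at a log2 fold change of 6.11 (SE 0.26, adjusted p = 1.85e-10). S100a6, a calcium-binding protein, Nrp2, a receptor for semaphorins, and Ntrk2, a neurotrophin receptor, followed at 5.98, 5.81 and 5.51. Cd177, a surface glycoprotein known from neutrophils, was among the most abundant of this set, at 669 ± 52.2 CPM in the colon against 56.8 ± 21.2 CPM in the small intestine (SD, n = 5), a log2 fold change of 4.32 (SE 0.22, adjusted p = 1.26e-09). In the colon lymphoid cells it was at 12.04 CPM.

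**Figure D3:**
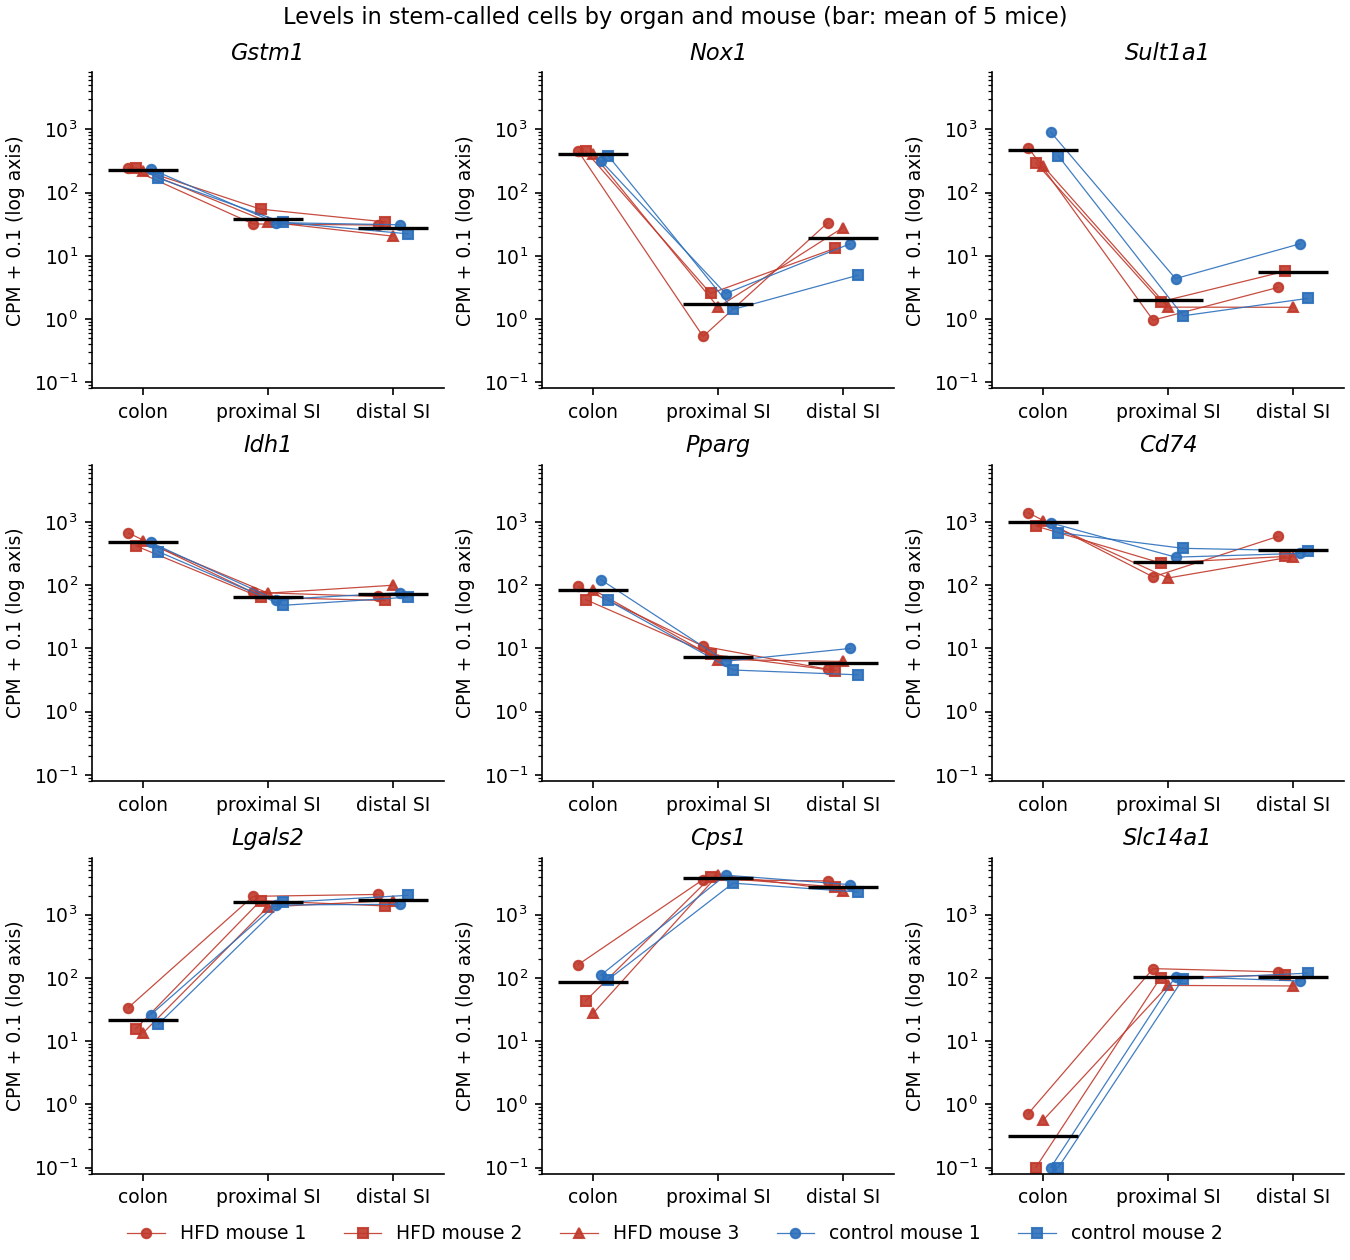
Levels of 9 genes in stem-called cells, in CPM + 0.1 on a log axis, by organ; each line joins the 3 libraries of 1 mouse (red, HFD; blue, control) and the black bar is the mean of 5 mice. In every panel the 5 colon points lie on one side of all 10 small intestine points.

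The 250 bases before the annotated start are shown for a pair of genes high in the colon (Nox1, Hoxa10) and a pair high in the small intestine (Lgals2, Olfm4), from RefSeq on GRCm38.p6, read 5′ to 3′ on the strand of the gene. Capitals mark matches, on either strand, to 4 motifs: TTTATT or TTTATG for CDX factors, AGATAA for GATA factors, CAAAGTC as an HNF4-type site and CAATAAA as a HOXB13-type site. The HOXB13-type letters and the CDX letters TTTATT overlap by 6 bases.
Nox1 (chrX:134111855-134112104, minus strand): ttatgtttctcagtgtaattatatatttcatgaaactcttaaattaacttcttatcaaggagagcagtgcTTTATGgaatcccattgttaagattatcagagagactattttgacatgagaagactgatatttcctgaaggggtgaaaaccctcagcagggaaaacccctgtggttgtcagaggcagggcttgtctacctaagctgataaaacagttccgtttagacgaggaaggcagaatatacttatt
Hoxa10 (chr6:52240855-52241104, minus strand): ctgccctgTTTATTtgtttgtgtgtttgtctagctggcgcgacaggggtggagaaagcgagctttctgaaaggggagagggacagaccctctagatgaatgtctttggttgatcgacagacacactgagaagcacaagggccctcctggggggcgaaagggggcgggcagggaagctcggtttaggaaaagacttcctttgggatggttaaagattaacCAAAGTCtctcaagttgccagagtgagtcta
Lgals2 (chr15:78855530-78855779, minus strand): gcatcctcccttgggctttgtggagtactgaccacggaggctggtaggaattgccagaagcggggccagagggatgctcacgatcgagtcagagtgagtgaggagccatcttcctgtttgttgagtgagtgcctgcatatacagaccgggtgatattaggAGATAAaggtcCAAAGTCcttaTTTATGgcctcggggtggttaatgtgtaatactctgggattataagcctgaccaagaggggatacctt
Olfm4 (chr14:80000052-80000301, plus strand): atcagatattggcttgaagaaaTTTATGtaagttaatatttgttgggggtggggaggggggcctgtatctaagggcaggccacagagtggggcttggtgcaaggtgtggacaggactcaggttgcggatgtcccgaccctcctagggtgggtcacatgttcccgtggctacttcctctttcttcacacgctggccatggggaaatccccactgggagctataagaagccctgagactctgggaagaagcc

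The Lgals2 window held 1 match each to the GATA, HNF4-type and CDX letters, between 90 and 63 bases before the start. Of 27025 promoters of this length in the mouse table, 26.1% held the CDX letters, 10.3% the GATA letters, 3.80% the HNF4-type letters and 4.42% the HOXB13-type letters. Of the 15 genes that led the ranking in each direction, 9 higher and 7 lower ones had a promoter in the table. CDX letters were present in 3 of the 9 and 5 of the 7, and HOXB13-type letters in none of the 16. Among the leading genes with a count in all 15 sums, CDX letters were present in 4 of 12 higher and 1 of 12 lower ones, and HOXB13-type letters in none of the 24. With so few windows these counts only describe the matched genes, and a match to letters is not a binding site.

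Genes that add sugars to mucosal glycans were split. Of 27 listed, 23 were tested, and 10 were called higher and 6 lower in the colon, with a median log2 fold change of 0.18. B3galt5, which builds type 1 chains, was at 114 ± 60.3 CPM in the colon and 1.03 ± 1.28 CPM in the small intestine (SD, n = 5). Fut2, the fucosyltransferase behind secretor status in humans, was at 39.8 ± 11.4 CPM in the colon and 2.19 ± 2.03 CPM in the small intestine (SD, n = 5). Gcnt3, a branching enzyme of mucin glycans, was also called higher, at 1.66 (SE 0.18, adjusted p = 3.49e-06). B4galnt2, the most abundant of the list, was called lower, at -0.71 (SE 0.08, adjusted p = 6.08e-06), with overlap between the groups.

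Ion transport genes were mixed, with 9 of 24 tested members (30 listed) called higher and 4 lower and a median of 0.21. Slc5a8, a carrier of short-chain fatty acids and lactate, measured 98.1, 118, 158, 95.2 and 63.98 CPM in the colon, 0 to 0.365 CPM in the proximal and 4.14 to 16.5 CPM in the distal small intestine, without overlap. The potassium channel subunit Kcne3 was at 669 ± 78.6 CPM in the colon against 428 ± 43.95 CPM in the small intestine (SD, n = 5), at 0.61 (SE 0.08, adjusted p = 2.93e-05). Slc12a2, the sodium, potassium and chloride carrier that feeds chloride secretion, was the most abundant member and was called lower by a small amount, -0.24 (SE 0.08, adjusted p = 0.0285). That call was lost when control mouse 1, control mouse 2, HFD mouse 1 or HFD mouse 3 was left out, with log2 fold changes between -0.26 and -0.21. It was also lost without the mouse block (-0.24, adjusted p = 0.248) and in sums thinned to the smallest (-0.19, 0.181). Neither control mice alone (-0.37, 0.0574) nor HFD mice alone (-0.16, 0.416) gave the call. The 6 markers of mature colonocytes had a median sum of 23.9 CPM in stem-called cells of the colon and summed to 50.2 to 159 CPM in those of the small intestine, and their part in these values was not tested.

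Enzymes of oxidant defence and drug metabolism were mostly higher. Of 34 listed, 27 were tested, and 16 were called higher and 5 lower, with a median log2 fold change of 0.75. Gstm1, a glutathione transferase, measured 248, 246, 218, 235 and 169 CPM in the colon, 31.8, 54.5, 34.1, 33.4 and 33.6 CPM in the proximal and 30.5, 34.2, 20.3, 30.8 and 22.1 CPM in the distal small intestine. The groups did not overlap, and the log2 fold change was 2.80 (SE 0.10, adjusted p = 2.31e-11). Gsta3, another glutathione transferase, Akr1b8, an aldo-keto reductase, and the quinone reductase Nqo1 were also called higher, at 5.67, 3.95 and 2.11. Gclm, the modifier subunit of glutathione synthesis, was at 191 ± 17.2 CPM in the colon and 72.03 ± 7.24 CPM in the small intestine (SD, n = 5). Among carboxylesterases Ces1g was called higher, at 4.72 (SE 0.29, adjusted p = 9.89e-09), and Ces2e lower, at -2.01 (SE 0.31, adjusted p = 1.27e-04). Counts of glutathione transferases and carboxylesterases may be shared among near-identical genes.

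NADPH oxidase partners and Ceacam genes were mostly higher, as Nox1 was. Of 22 mucosal host factors listed, 12 were tested, with 8 called higher and 2 lower. Noxo1, the organiser of the Nox1 complex, was called higher at 0.86 (SE 0.07, adjusted p = 1.92e-07), and Duox2, a hydrogen peroxide producing oxidase, at 2.64 (SE 0.20, adjusted p = 9.45e-08). Duox2 was graded along the gut, with 127 ± 39.04 CPM in the colon, 5.59 ± 2.24 CPM in the proximal and 73.00 ± 30.4 CPM in the distal small intestine (SD, n = 5). Ceacam10 was at 390.4 ± 83.7, 24.8 ± 27.3 and 216 ± 87.00 CPM in colon, proximal and distal parts (SD, n = 5). Its difference from the distal part alone was not called, at 0.82 (SE 0.38, adjusted p = 0.155). Tgm2, a transglutaminase, was called lower, at -0.87 (SE 0.13, adjusted p = 1.13e-04).

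All 8 genes listed for antigen presentation on MHC class II were tested and called higher in the colon, with a median log2 fold change of 1.91. Cd74, the invariant chain, measured 1398, 865, 1025, 968 and 682 CPM in the colon, 135, 225, 130.0, 278 and 383 CPM in the proximal and 590.3, 285, 284, 319 and 350.0 CPM in the distal small intestine. The groups did not overlap, and the log2 fold change was 1.77 (SE 0.22, adjusted p = 1.72e-05). Ciita, the factor that switches on the class II genes, was at 56.2 ± 18.1 CPM in the colon and 17.5 ± 2.65 CPM in the small intestine (SD, n = 5), at 1.59 (SE 0.23, adjusted p = 7.36e-05).

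These genes are also the hallmark of B cells, macrophages and dendritic cells, and lymphoid cells of the colon libraries had 3199.7 CPM of Cd74. The summed level of 8 B and plasma cell markers in stem-called cells was 8.19 to 381 CPM in the colon (median 96.4) and 2.85 to 144 CPM in the small intestine (median 21.5). In stem-called cells with no UMI of any T cell, B cell, plasma cell or macrophage marker, the summed class II level was 2155 to 3952 CPM in the colon and 305 to 1745 CPM in the small intestine. The colon rests there on 4 to 207 cells a library. The mean within-mouse log2 ratio was 1.77 in those cells and 1.93 in all stem-called cells, an alternative chosen after the data had been seen. A Cd74 UMI was present in 95.0% to 100% of colon stem-called cells and in 54.6% to 98.1% of small intestine stem-called cells. The organ difference was not particular to stem-called cells. In unmarked cells the summed class II level was 2292 to 5936 CPM in the colon and 164 to 1354 CPM in the small intestine.

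Stem cell genes were not uniformly lower in the colon. Of 29 markers listed beside Lgr5, 27 were tested, with 13 called lower and 5 higher and a median log2 fold change of -0.20. The list comes largely from work on the small intestine. Those lower by most were Olfm4, Gkn3, Slc14a1, Igfbp4 and Msi1. Gkn3, a gastrokine, was listed at 0 in the colon and was highest in the proximal small intestine, at 151, 138, 203, 183 and 175 CPM, against 12.2, 14.9, 20.96, 4.40 and 21.8 CPM in the distal part. Slc14a1, a urea transporter, was at 0 to 0.613 CPM in the colon and 74.4 to 140.0 CPM in the small intestine.

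Igfbp4, an insulin-like growth factor binding protein, had 24.5, 24.9, 6.95, 25.4 and 8.58 CPM in the colon, 132, 102, 115, 164 and 107 CPM in the proximal and 141, 83.97, 99.2, 173 and 113 CPM in the distal small intestine. The groups did not overlap, at a log2 fold change of -3.12 (SE 0.20, adjusted p = 1.40e-08). Smoc2, a matricellular protein of crypt base cells, was at 315 ± 20.5 CPM in the colon against 523 ± 22.6 CPM in the small intestine (SD, n = 5), at -0.76 (SE 0.09, adjusted p = 1.51e-05). Ascl2, a transcription factor of these stem cells, was not called, at -0.20 (SE 0.14, adjusted p = 0.322), and neither was the Wnt target Ephb2, at 0.06 (SE 0.09, adjusted p = 0.71). Called higher were Ephb3 at 1.11 (SE 0.10, adjusted p = 6.29e-07), the hyaluronan receptor Cd44 at 1.19 (SE 0.15, adjusted p = 1.49e-05), the epidermal growth factor receptor regulator Lrig1 at 0.45 (SE 0.08, adjusted p = 7.69e-04), Aqp4, a water channel, at 0.40 (SE 0.09, adjusted p = 0.0036), and Sox9 at 0.39 (SE 0.12, adjusted p = 0.0224). The Sox9 call was lost when control mouse 1, HFD mouse 1 or HFD mouse 3 was left out, at 0.33 to 0.41. It was also lost in HFD mice alone (0.35, adjusted p = 0.0935), without the mouse block (0.36, 0.417), with the stem call made at 3000 UMIs (0.30, 0.0851) or on 2 UMIs (0.26, 0.163), and in sums thinned to the smallest (0.23, 0.313). The Aqp4 call was lost with the stem call made at 3000 UMIs, at 0.27 (adjusted p = 0.0860), and in control mice alone, at 0.42 (adjusted p = 0.0539). The Lrig1 call was lost in control mice alone, at 0.36 (adjusted p = 0.0743).

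Wnt genes, of which 28 were listed and 25 tested, included 11 called lower and 4 higher, with a median of -0.19, and overlap with the stem cell list. Axin2, a feedback inhibitor that reports Wnt activity, was at 304 ± 82.5 CPM in the colon and 429 ± 81.8 CPM in the small intestine (SD, n = 5), at -0.55 (SE 0.12, adjusted p = 0.00289). The Axin2 call was lost without the mouse block (-0.53, adjusted p = 0.0504) and in HFD mice alone (-0.45, 0.0593). Sfrp5, a secreted Wnt inhibitor, was near 0 in the colon, at 0 to 0.695 CPM, against 10.5 to 134 CPM in the small intestine. Of 16 Notch and secretory fate genes tested (19 listed), 3 were called higher and 2 lower, near the 14.7% and 13.8% of all genes tested. The ligand Dll1 and the receptor Notch2 were the 2 called lower, at -1.74 and -1.45. Creb3l1, a secretory pathway transcription factor, was called higher at 2.92 (SE 0.21, adjusted p = 4.29e-08). Goblet and deep crypt secretory markers summed to 655 to 4252 CPM in the colon libraries and 476 to 6467 CPM in the small intestine libraries, and their part in these values was not tested.

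Genes for taking up and packaging fat were lower in colon stem-called cells. Of 29 enterocyte and lipid absorption genes listed, 23 were tested, and 19 were called lower and 1, the lipoprotein receptor Scarb1, higher. The median log2 fold change was -3.12, and -1.76 over the members with a count in all 15 sums. Mttp, which loads fat onto apolipoprotein B, measured 4.91, 3.11, 5.33, 3.55 and 3.12 CPM in the colon, 285, 282, 252, 173 and 164 CPM in the proximal and 70.6, 44.2, 95.1, 52.8 and 70.5 CPM in the distal small intestine. Apob, the apolipoprotein itself, measured 47.2, 27.99, 33.6, 31.9 and 51.9 CPM in the colon, 389, 432, 438, 543 and 283 CPM in the proximal and 317, 263, 246, 414 and 227 CPM in the distal small intestine. Neither overlapped between colon and small intestine, with log2 fold changes of -4.95 (SE 0.22, adjusted p = 2.55e-10) for Mttp and -3.12 (SE 0.18, adjusted p = 5.74e-09) for Apob. Sucrase-isomaltase (Sis) and the aminopeptidase Anpep were also called lower, at -4.99 and -3.36. Summed levels of 6 enterocyte markers in stem-called cells were 93.3 to 308 CPM in the colon and 154 to 1162 CPM in the small intestine, and the part of maturing cells in these differences was not tested.

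The gene lower in the colon at the greatest ratio, among those with a count in all 15 sums, was Lgals2, a galactose-binding lectin, whose promoter is printed above. It measured 33.7, 15.6, 13.4, 26.02 and 18.3 CPM in the colon, 1950.3, 1666, 1329, 1424 and 1561 CPM in the proximal and 2089.9, 1373, 1674, 1459 and 2022 CPM in the distal small intestine. The log2 fold change was -6.34 (SE 0.16, adjusted p = 1.15e-12). In unmarked cells the means were 26.2 CPM in the colon and 2805 CPM in the small intestine.

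Cps1 and Nags, a pair of enzymes at the entry of the urea and citrulline pathway, were in the same set. Cps1, carbamoyl phosphate synthetase, was at 162, 43.5, 27.6, 110.0 and 94.02 CPM in the colon, 3589.6, 3885, 4275, 4215 and 3153 CPM in the proximal and 3419.5, 2759, 2404, 2988 and 2283 CPM in the distal small intestine. Nags, which makes the activator of Cps1, was at 1.84, 3.11, 4.17, 3.55 and 1.17 CPM in the colon, 36.9, 58.7, 46.1, 58.01 and 27.97 CPM in the proximal and 25.1, 30.5, 23.7, 32.5 and 21.3 CPM in the distal small intestine. No colon library reached any small intestine library for either gene, at -5.32 (SE 0.30, adjusted p = 3.44e-09) for Cps1 and -3.54 (SE 0.19, adjusted p = 2.72e-09) for Nags. Zfpm1, a cofactor of GATA factors, was among the same set, at 3.00 ± 0.647 CPM in the colon and 91.5 ± 23.03 CPM in the small intestine (SD, n = 5). So were Slco2b1, an organic anion carrier, and the growth hormone receptor Ghr, at -3.49 and -2.84.

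Of the 15 genes that led the first ranking downwards, Defa24, Gm15284, AY761184, Defa17, Lyz1 and Itln1 are Paneth cell products or belong to their families. Lyz1, a lysozyme, was at 0 to 2.32 CPM in the colon, 52.03 to 459 CPM in the proximal and 605 to 4803 CPM in the distal small intestine. The 11 Paneth markers summed to 3.07 to 460 CPM in the colon libraries (median 7.69) and 130 to 18722 CPM in the small intestine libraries (median 1786), and lymphoid cells of the small intestine carried 117 CPM of Lyz1. The 460 CPM came from the 27 stem-called cells of the HFD mouse 2 colon, where 10 of the 11 markers were at 0. The defensin genes are close copies, so single members are uncertain, and the calls of Defa24, Gm15284, AY761184 and Lyz1 were lost under limma voom, at adjusted p-values of 0.0582, 0.122, 0.140 and 0.0784. Defa24, Gm15284 and AY761184 were listed at 0 in all 5 colon libraries and were detected in all 10 small intestine libraries. The log2 fold change of Lyz1 was -8.86 under limma voom, against -9.18 in edgeR's quasi-likelihood test.

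The others of the 15 were Olfm4, Gkn3, Myrf, Agmat, Cyp2e1, Cfi, Fras1, Habp2 and Slc14a1. Myrf, a membrane-bound transcription factor, was listed at 0 in the colon and lay at 41.2, 39.4, 40.1, 49.03 and 43.4 CPM in the proximal and 43.2, 31.7, 36.9, 34.7 and 33.5 CPM in the distal small intestine. Agmat, an agmatinase, was listed at 0 in the colon and lay at 45.5 to 55.3 CPM in the proximal and 18.7 to 27.2 CPM in the distal small intestine.

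More fatty acid oxidation genes were lower than higher in the colon over the whole small intestine. Of 37 PPAR targets and oxidation genes listed, 36 were tested, with 15 called lower and 5 higher and a median of -0.30. Against the proximal part alone 23 were called lower and 3 higher, beside 14.9% and 15.2% of all genes tested. Against the distal part 5 were called lower and 6 higher, beside 10.1% and 11.1% of all genes tested. Pparg, a nuclear receptor that binds fatty acids, was at 96.3, 59.1, 84.5, 122 and 57.4 CPM in the colon, 10.7, 7.98, 6.58, 6.19 and 4.45 CPM in the proximal and 4.58, 4.35, 6.13, 9.91 and 3.73 CPM in the distal small intestine, without overlap, at 3.75 (SE 0.16, adjusted p = 1.85e-10). Ppara was called lower, at -1.25 (SE 0.21, adjusted p = 2.50e-04), as were Acsl1, which activates long-chain fatty acids, at -1.32 (SE 0.10, adjusted p = 1.41e-07), and Cpt1a, which admits them to mitochondria, at -0.58 (SE 0.12, adjusted p = 0.00146). The Cpt1a call was lost without the mouse block (-0.63, adjusted p = 0.234) and in control mice alone (-0.31, 0.174). Acads, the short-chain acyl-CoA dehydrogenase, was called higher, at 129 ± 34.2 CPM in the colon and 55.00 ± 7.46 CPM in the small intestine (SD, n = 5). Bile acid carriers were divided: of 6 tested (10 listed), Abcc3 was called higher at 1.07 (SE 0.14, adjusted p = 2.85e-05), and Abcc2 was at 0 to 0.78 CPM in the colon and 12.4 to 31.7 CPM in the small intestine.

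The organ difference was also compared between HFD and control mice. Of 11490 genes tested, 1 (0.0087%) was called, with edgeR's quasi-likelihood test, as having another colon to small intestine ratio in HFD mice than in control mice. At an unadjusted p under 0.05 there were 473 genes, and 602 with limma voom. The 3 genes next to the threshold, named after their values were seen, were Acot1, an acyl-CoA thioesterase, Scd2, a fatty acid desaturase, and Sct, the hormone secretin, each with an adjusted p of 0.0839. The 12 enteroendocrine markers, Sct among them, summed to 1.23, 0 and 305 CPM in colon stem-called cells of HFD mice and to 11.2 and 883 CPM in those of control mice, against 99.0 to 783 CPM in the small intestine, and their part in the Sct values was not tested. The log2 fold change of colon against small intestine was -0.83 (SE 0.16) for Acot1, 3.09 (SE 0.16) for Scd2 and -3.71 (SE 0.61) for Sct in HFD mice, and 0.86 (SE 0.21), 1.55 (SE 0.18) and 1.28 (SE 0.52) for the same genes in control mice. With 2 mice in the control group, differences of this kind were recovered in part on simulated data, at 78% of genes changed by 2 on the log2 scale.

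Cell division genes were slightly lower or not called. Of 35 replication and mitosis genes tested, 13 were called lower and 0 higher, with a median log2 fold change of -0.33 and no member differing 2-fold. Mcm2, a subunit of the replicative helicase, was at 134 ± 8.22 CPM in the colon and 171 ± 9.92 CPM in the small intestine (SD, n = 5), at -0.38 (SE 0.07, adjusted p = 3.75e-04). The Mcm2 call was lost in sums thinned to the smallest (-0.31, adjusted p = 0.107) and in control mice alone (-0.41, 0.0542). Against the proximal part 18 of the 35 genes were called lower, beside 14.9% of all genes tested. Against the distal part 5 of the 35 were called lower, beside 10.1% of all genes tested. Of 18 serine and one-carbon genes tested (20 listed), 7 were called lower and 2 higher. The 2 were Cbs, which makes cystathionine from homocysteine, at 149 ± 33.4 CPM in the colon and 18.96 ± 4.62 CPM in the small intestine (SD, n = 5), and Phgdh, the entry enzyme of serine synthesis, at 1.02 (SE 0.15, adjusted p = 6.92e-05).

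Glycolysis genes included 5 called higher and 2 lower of 16. Hk1, a hexokinase, was at 46.6, 43.5, 53.7, 60.3 and 41.7 CPM in the colon, 7.73, 2.44, 3.70, 4.85 and 1.61 CPM in the proximal and 8.28, 4.35, 5.93, 12.1 and 4.27 CPM in the distal small intestine, at 3.33 (SE 0.20, adjusted p = 6.62e-09). Lymphoid cells of the colon had 67.2 CPM of Hk1. The hexokinase was called higher in the colon while the lactate dehydrogenase Ldha was called lower, at -0.51 (SE 0.11, adjusted p = 0.0026). The Ldha call was lost in HFD mice alone (-0.37, adjusted p = 0.0990). Of 14 claudin and junction genes tested (15 listed), 5 were called higher and 3 lower, none by 2-fold, and Cldn2, the cation pore claudin, was at 0.90 (SE 0.11, adjusted p = 1.99e-05). Of 6 keratins tested (7 listed), 1 was called higher and 1 lower, near the 14.7% and 13.8% of all genes tested. Of 8 mitochondrially encoded genes tested (13 listed), 0 were called higher and 1 lower.

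Genes known to respond to cell dissociation were raised in some colon libraries. Of 19 tested (20 listed), 5 were called higher and 0 lower, with a median of 0.99. Klf6 measured 78.5, 52.9, 644, 178 and 559 CPM in the colon and 55.1 to 229 CPM in the small intestine. Nr4a1 measured 17.8, 9.33, 170.4, 33.1 and 168 CPM in the colon and 3.71 to 62.9 CPM in the small intestine. Only HFD mouse 3 and control mouse 2 had colon levels of both genes above all their small intestine libraries, and both calls were lost without either of these mice. The part of this list in other colon differences was not tested.

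**Figure D4:**
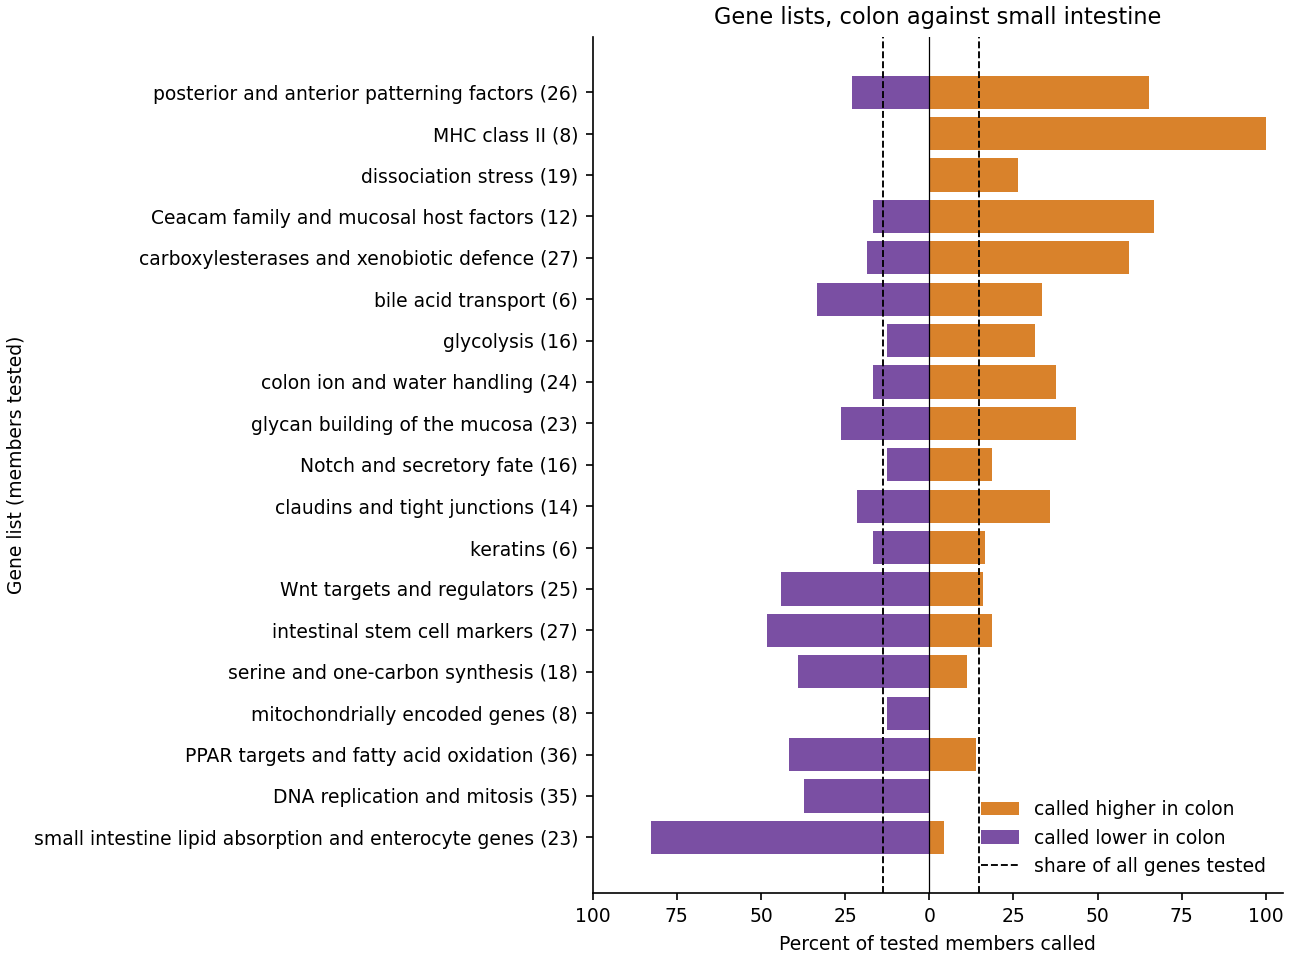
Percent of the tested members of each of 19 gene lists that were called higher in the colon (orange, to the right) or lower (purple, to the left), ordered by median log2 fold change; the number tested is in brackets. Dashed lines mark the shares among all 11490 genes, 14.7% higher and 13.8% lower.

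The colon against small intestine difference was compared between stem-called cells and the other 14301 cells of the same libraries. Of 12761 genes tested, 875 (6.86%) differed in this way, 418 (3.28%) with a more positive and 457 (3.58%) with a more negative difference in stem-called cells. The other cells are a mixture of types whose makeup may differ between the organs, and its part in these values was not tested. Without control mouse 2 there were 152 and 162 such genes, without HFD mouse 2 there were 185 and 239, and without HFD mouse 3 there were 157 and 213; without HFD mouse 1, 253 had a more positive difference.

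Idh1, the cytosolic isocitrate dehydrogenase that supplies NADPH, led the positive set by p. In stem-called cells it was at 671, 419.9, 501, 475 and 341 CPM in the colon, 76.9, 64.3, 74.9, 59.2 and 47.98 CPM in the proximal and 66.3, 57.2, 99.8, 75.9 and 64.5 CPM in the distal small intestine, without overlap. Its mean was 246 CPM in the other cells of the colon and 116 CPM in those of the small intestine, so that the difference was greater in stem-called cells, by 1.73 (SE 0.13, adjusted p = 7.50e-07). The quinone reductase Nqo1, glutathione reductase Gsr, the microsomal glutathione transferase Mgst1 and the metallothionein Mt2 went the same way, by 1.48, 0.88, 1.12 and 1.67. Within the xenobiotic list 11 of 27 members had a more positive and 1 a more negative difference in stem-called cells. Tm4sf5, a tetraspan membrane protein, was lower in the colon in both cell groups and by less in stem-called cells, by 2.14.

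On the negative side stood Atp2c2, a calcium pump of the secretory pathway, Qsox1, a sulfhydryl oxidase, Aqp4, Camk2n1, an inhibitor of a calmodulin kinase, Sycn, a secretory granule protein, and Slc12a8. Atp2c2 was lower in the colon in stem-called cells, at 8.66 ± 5.84 against 28.3 ± 2.66 CPM (SD, n = 5), and higher in the colon in the other cells, at 59.8 against 21.9 CPM. The difference of the log2 fold changes was -2.78 (SE 0.24, adjusted p = 2.63e-06). Aqp4 differed less in stem-called cells, at 269.6 to 386 CPM in the colon and 167 to 301 CPM in the small intestine, while the other cells averaged 358 CPM in the colon and 93.2 CPM in the small intestine. For Qsox1, Sycn, Camk2n1 and Slc12a8 the differences were -1.68, -2.38, -1.57 and -1.84. Within the MHC class II list 4 of 8 members had a more negative and 0 a more positive difference in stem-called cells. Among all genes tested these shares were 3.58% and 3.28%.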

How the data were processed

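Single-cell RNA counts from Seq-Well libraries of 5 mice were used as the authors deposited them: whole UMI counts of 17185 genes in 18919 cells, with a cell table giving mouse, organ and the stem mark. The genome build was mm10, per the submitters' processing notes; the aligner, the counter and the cell filters are not given in the sources used here. Counts summed per cell equalled the deposited totals in 18919 of 18919 cells, and the cells had at least 538 UMIs. The cell table names a control mouse 3 where the labels name a control mouse 2, which was assigned by elimination. No doublet caller was run.

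Counts of stem-called cells were summed per mouse and organ into 15 sums of 321496 UMIs or more. They were fitted with edgeR 4.0.16 (quasi-likelihood, TMM scaling, filterByExpr by organ, R 4.3.3) with mouse and organ as terms, and p-values were adjusted by the Benjamini-Hochberg method over all genes tested. The mouse is a block because the organs come from the same animals; deviations of libraries of the same mouse correlated at 0.08 to 0.57. Alternatives used limma 3.58.1 (voom), DESeq2 1.42.0, other filters, scalings and stem calls, and left out libraries. On simulated data with 11343 genes, 74.6% of genes changed by 1 and 97.0% of those changed by 2 on the log2 scale were recovered.

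The members, gene lists and tests were chosen with earlier results of these data known. Named genes are the 3 markers, the 15 called genes with the highest and lowest log2 fold change that lay on the same side in all 5 mice at a mean of at least 20 CPM, and up to 6 genes of a list, by level or fold size; for the diet and stem call tests, called genes were taken by p. Other named genes, and the ranking over genes with a count in all 15 sums, were chosen after values were seen. Results for some genes are not reported here. Lymphoid cells are unmarked cells with at least 2 lymphoid genes and no UMI of the epithelial gene Epcam. Other epithelial RNA was not excluded: a UMI of the keratin Krt8 was present in 12.8% of colon, 31.25% of proximal and 29.0% of distal lymphoid cells.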

Additional observations from a re-analysis of the deposited data

Results flagged for a closer look

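Within-mouse log2 ratios of colon to small intestine (CPM plus 1) had 1 mouse far from the other 4 for 4 of 129 genes examined. Fras1 stood apart in control mouse 1, at -5.61, Nags in HFD mouse 3, at -2.80, Slco2b1 in HFD mouse 1, at -2.48, and Ceacam10 in control mouse 2, at 2.57. Chance marks about 1 in 20 groups in this way.

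The organ difference differed between stem-called and other cells, in the direction of a higher colon in stem-called cells, for Idh1 (1.73), Nqo1 (1.48), Gsr (0.88), Tm4sf5 (2.14), Mt2 (1.67) and Mgst1 (1.12). It went the other way for Atp2c2 (-2.78), Qsox1 (-1.68), Aqp4 (-1.61), Camk2n1 (-1.57), Sycn (-2.38) and Slc12a8 (-1.84).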

How the results depend on the processing

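Without the mouse as replicate block, 1253 genes were called higher and 977 lower in the colon than in the small intestine; 999 were lower against the proximal part, and 834 higher and 756 lower against the distal part. A stem call after thinning to 3000 UMIs left 1009 higher and 813 lower, sums thinned to the smallest 549 and 439 of 6702 genes tested, control mice alone 961 and 678, and HFD mice alone 1100 and 842. Leaving out each mouse gave 1316 to 1614 higher and 1093 to 1450 lower. For the diet difference, 3 genes were higher and 7 lower without a filter on low counts, and 8 lower without control mouse 1. For the stem call by organ, 690 were higher with limma voom and 261 without the filter; leaving out each mouse gave 152 to 487 higher and 162 to 502 lower. The share of stem-called cells differed by -14.3 to -10.0 percentage points when a mouse was left out, with an exact permutation p of 0.125. Ephb2, not called, ran from -0.0080 (without control mouse 1) to 0.099 when a mouse was left out, and was at -0.032 with thinned sums, both a change of sign from its 0.06. Of 129 gene results, 108 kept their direction and side of the threshold under every alternative tried. The causes were not tested. Colon values rest on few cells, 27 in HFD mouse 2, and counting limits the precision of genes under about 20 CPM there.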
